A study of Mus musculus with 4 samples.

Results

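The Hox genes were examined as a family in the RNA of bleomycin (BLM)-treated skin. All genes of the deposited table whose symbol is Hox, a cluster letter from a to d and a number were taken, which gave 39 of 24441 genes. HoxA held 11 of them, HoxB 10, HoxC 9 and HoxD 9. Skin came from female C57BL/6 mice, labelled as 8 weeks old, that had received BLM under the skin every other day over 28 days, the murine model of scleroderma. The injections went to a fixed position on the back, per the study's methods. WT mice carried the wild type Gsdmd gene (n = 2 libraries) and GSDMD KO mice carried a Cas9-made knockout (n = 2), so that both groups shared the BLM treatment and no untreated skin was analysed here. Gsdmd itself stood at 14.0 and 18.2 FPKM in WT, against 3.53 and 2.26 FPKM in KO skin. FPKM is the number of sequenced fragments per length of transcript and depth of library, so levels of different genes can be set side by side. Nothing in the labels ties a library to a single animal, and the spread between libraries may be technical in part.

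Hox genes encode homeodomain transcription factors that give cells their position along the head-to-tail axis and, in the limb, along the axis from body to digits. They lie in 4 clusters, and the genes at the same place in different clusters, called paralogues, carry the same number. Low numbers are used towards the head and high numbers towards the tail and the limb tip. In adult skin, dermal fibroblasts of different body sites keep different sets of active Hox genes, and the epidermis and hair follicles express Hox genes as well.

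In the mm9 assembly, the members lie in 4 blocks. HoxA spans chr6:52105366-52210874 on the minus strand. HoxB, on the plus strand, spans chr11:96055675-96229567. HoxC spans chr15:102751562-102867283 and HoxD chr2:74506367-74603199, both on the plus strand. The homeobox, the 180 coding bases that specify the DNA-binding homeodomain, was found in the GENCODE transcripts of all 39 members, in each inside a single exon. Paralogues were more alike there than genes of the same cluster. The median identity was 80.6% over 42 pairs of the same number and 61.7% over 172 pairs of the same cluster. The homeoboxes of paralogue group 8 are shown because Hoxb8 and Hoxc8 stood higher in KO skin while Hoxd8 overlapped, together with the cluster neighbour Hoxb7 and with Hoxc13, the only member of paralogue groups 11 to 13 that was tested. Capitals mark bases that differ from Hoxb8 at the same place, and each sequence is the coding strand from 5′ to 3′.
Hoxb8: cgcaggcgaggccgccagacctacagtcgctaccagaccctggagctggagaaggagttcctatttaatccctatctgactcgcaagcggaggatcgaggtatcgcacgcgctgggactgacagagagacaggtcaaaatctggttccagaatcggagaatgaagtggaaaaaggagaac
Hoxc8: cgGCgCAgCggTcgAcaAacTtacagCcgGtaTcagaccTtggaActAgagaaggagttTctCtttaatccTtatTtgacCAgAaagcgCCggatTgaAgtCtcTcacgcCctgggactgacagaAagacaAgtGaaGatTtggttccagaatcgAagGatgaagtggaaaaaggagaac
Hoxd8: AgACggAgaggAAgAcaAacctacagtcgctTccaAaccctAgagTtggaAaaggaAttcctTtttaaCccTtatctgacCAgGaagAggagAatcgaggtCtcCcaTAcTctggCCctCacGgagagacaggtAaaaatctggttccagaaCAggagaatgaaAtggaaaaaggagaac
Hoxb7: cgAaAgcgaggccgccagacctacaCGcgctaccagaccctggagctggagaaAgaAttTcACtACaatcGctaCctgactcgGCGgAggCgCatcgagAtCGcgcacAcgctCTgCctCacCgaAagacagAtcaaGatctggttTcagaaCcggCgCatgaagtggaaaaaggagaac
Hoxc13: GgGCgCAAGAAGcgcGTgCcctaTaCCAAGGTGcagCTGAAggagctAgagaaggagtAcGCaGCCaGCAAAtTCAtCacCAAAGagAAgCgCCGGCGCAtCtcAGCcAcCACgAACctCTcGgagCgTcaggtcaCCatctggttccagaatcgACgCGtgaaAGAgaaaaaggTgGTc
The Hoxb8 sequence lies at chr11:96145488-96145667 and the Hoxb7 sequence at chr11:96150699-96150878. The Hoxc8 homeobox is at chr15:102823002-102823181, the Hoxd8 homeobox at chr2:74544582-74544761 and the Hoxc13 homeobox at chr15:102757641-102757820. Hoxc8 differed from Hoxb8 at 36 bases, Hoxd8 at 35 and Hoxb7 at 35, against 87 for Hoxc13. Over whole transcripts, the longest stretch that any 2 members of different clusters shared without a mismatch was 52 bases, between Hoxa6 and Hoxb4.

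BLM-treated skin held Hox mRNA of all 4 clusters. Of the 39 members, 24 reached 1 FPKM in at least 2 libraries, which were 9 of HoxA, 7 of HoxB, 5 of HoxC and 3 of HoxD. Members of the middle paralogue groups reached this limit most often. All 15 members of groups 4 to 8 passed this limit, as did 5 of the 8 members of groups 1 to 3 and 4 of the 16 members of groups 9 to 13. The highest mean level belonged to Hoxd8, at 22.0 and 10.8 FPKM in WT, against 18.1 and 15.2 FPKM in KO skin. Hoxd9, its neighbour towards the high-numbered end, stood at 12.7 and 8.70 FPKM in WT, against 10.6 and 6.75 FPKM in KO skin. Both groups of libraries overlapped for these genes.

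**Figure D1:**
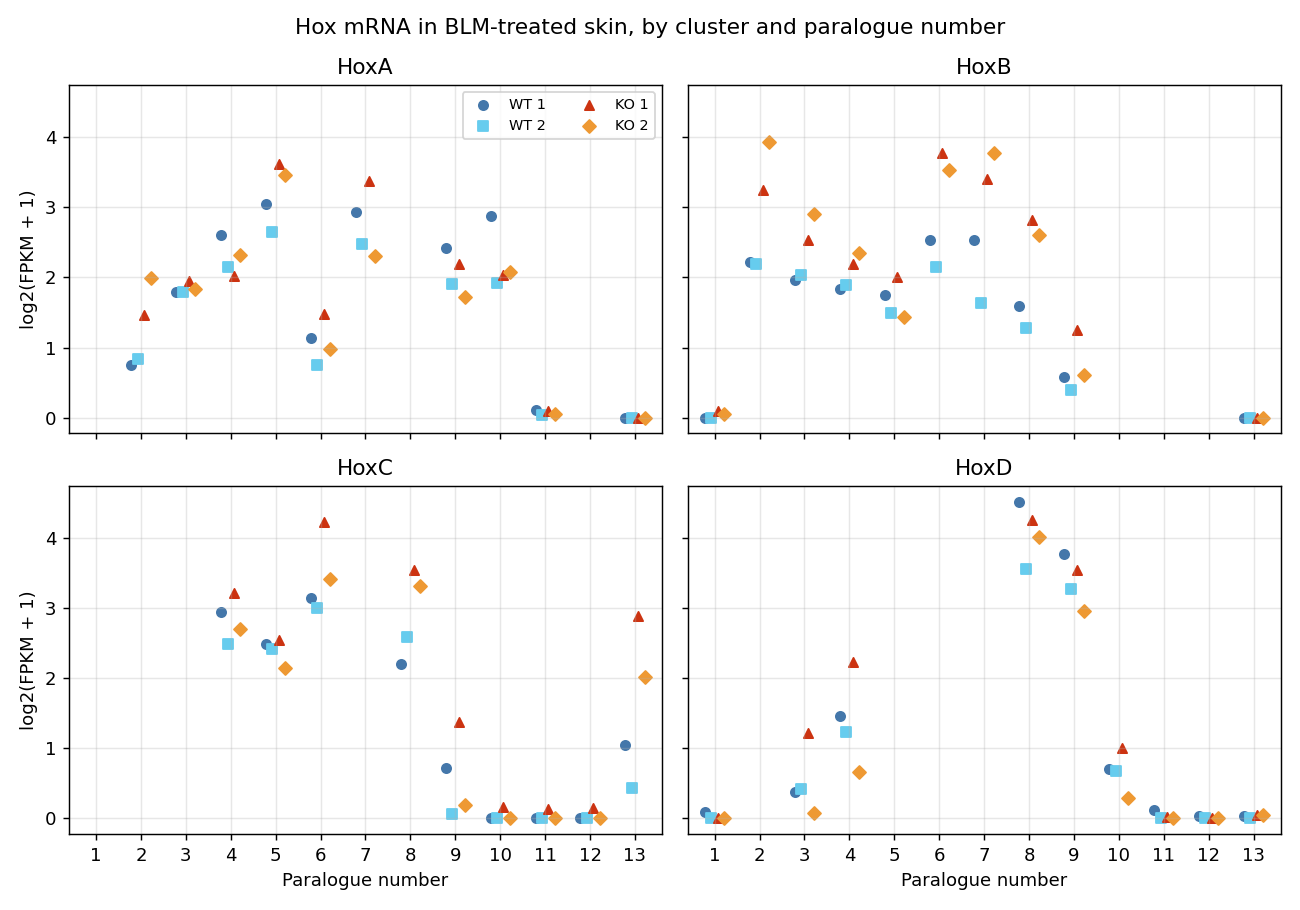
Level of the Hox genes reported here in the 4 libraries, as log2(FPKM + 1) against paralogue number, with 1 panel per cluster. Circles and squares are WT 1 and WT 2, triangles and diamonds KO 1 and KO 2; Hoxb2, Hoxb6, Hoxb7 and Hoxb8 of both KO libraries lie above both WT libraries, while Hoxd8 and Hoxd9 overlap.

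Of the members in groups 11 to 13, all but Hoxc13 were near the limit of detection or listed at 0. A single fragment on a transcript of 1 kb was worth an estimated 0.0574 to 0.0783 FPKM, and 3 fragments 0.172 to 0.235 FPKM. Hoxa11 reached at most 0.0769 FPKM, Hoxd11 0.0835 FPKM, Hoxd12 0.0228 FPKM and Hoxd13 0.0321 FPKM. Their longest annotated transcripts exceed 1 kb. At those lengths, WT 1 held an estimated 3.60 fragments of Hoxa11, 6.19 of Hoxd11, 1.04 of Hoxd12 and 1.01 of Hoxd13. Hoxa13 and Hoxb13 were listed at 0 in all 4 libraries. Hoxc10, Hoxc11 and Hoxc12 were listed at 0 in every library but KO 1, where they stood at 0.120, 0.101 and 0.113 FPKM. At the other end, Hoxb1 reached at most 0.0728 FPKM and Hoxd1 was above 0 only in WT 1, at 0.0650 FPKM. Hoxb9, Hoxc9 and Hoxd3 passed 1 FPKM in KO 1 alone, at 1.38, 1.59 and 1.33 FPKM, and Hoxd10 stayed between 0.224 and 0.999 FPKM.

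The ranking of the family was much alike in the 4 libraries. Spearman's rho over the 39 members, a description across genes that share a library's depth and many values near 0, was 0.965 between the WT libraries and 0.943 between the KO libraries. Between a WT and a KO library it lay from 0.903 to 0.921.

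No Hox gene passed the test between KO and WT skin, and neither did any other gene. With limma on log2(FPKM + 1) and Benjamini-Hochberg adjustment over 13027 genes, 0 of 24 tested Hox genes had an adjusted p under 0.05 with an absolute log2 fold change above 1, where 0.0% of all genes did. Their adjusted p ran from 0.248 to 0.933. Without KO 1, 3 were called (Hoxa2, Hoxb2 and Hoxb7), in a fit that called 2058 genes and took the lone KO library to vary like the WT libraries. Without adjustment, 9 of 24 Hox genes had p under 0.05, against 17.1% of all genes, and all 9 were higher in KO skin. Without Hoxa2, which reached 1 FPKM in the KO libraries alone, 8 were left. Adding the fold limit left 6 Hox genes higher in KO, against 6.16% of all genes, and 0 lower, against 4.14%. Over all genes this was 802 higher and 539 lower, a split that became 632 and 707 once libraries were scaled by median-ratio factors, with 5 Hox genes higher and 0 lower. Both KO libraries lay above both WT libraries in 13 of the 24 Hox genes and in 35.3% of all genes, and 2 of the 13 reached 1 FPKM in the KO libraries alone. Both lay below in 0 Hox genes and in 20.5% of all genes. Members of a cluster are neighbours, so these are not counts of independent genes.

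The log2 fold change was above 0 for 19 of 24 tested Hox genes, where 58.6% of all genes had one above 0. That count was 14 without KO 1, 15 without WT 2 and 22 without either WT 1 or KO 2. The median log2 fold change was 0.26 for the Hox genes and 0.11 for all genes. Leaving out a library put the Hox median between 0.14 (without KO 1) and 0.54 (without KO 2). With median-ratio factors, which moved the median of all genes to 0.0085, the Hox median was 0.18.

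**Figure D2:**
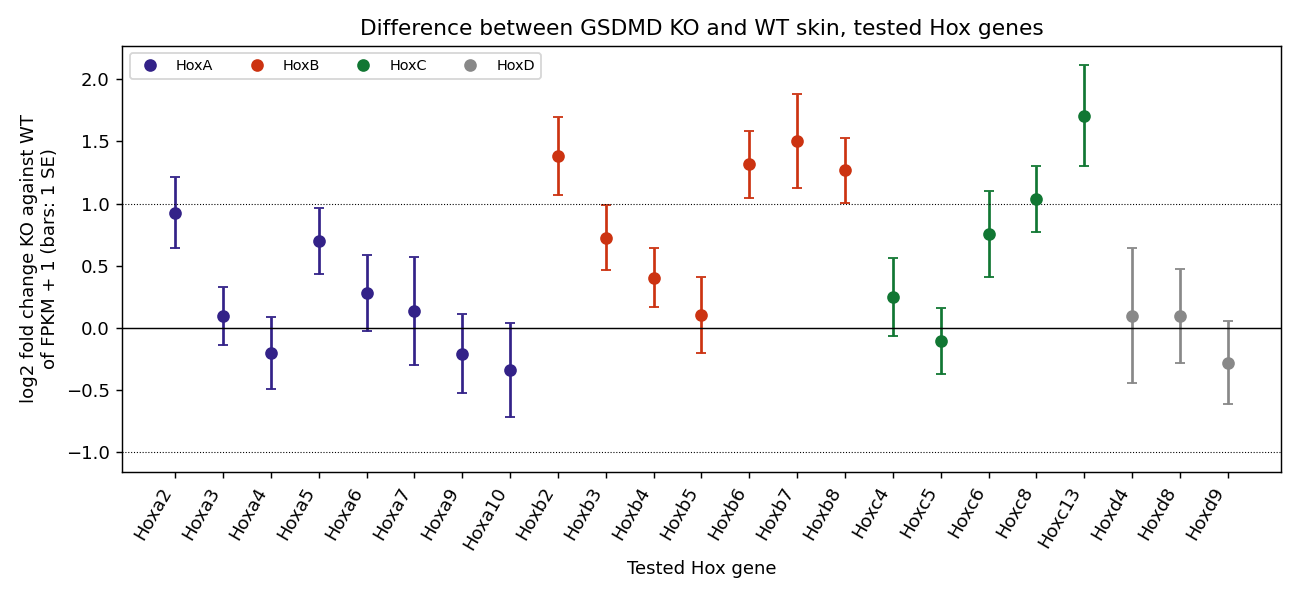
Log2 fold change of FPKM + 1 between KO and WT skin for the tested Hox genes reported here, in order of cluster and paralogue number; points are limma estimates, bars 1 SE, and dotted lines the fold limit of 1. All 7 HoxB genes lie above 0, the HoxA and HoxD genes lie on both sides of 0, and Hoxc13 stands at 1.71.

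HoxB held 4 of the 6 Hox genes past the unadjusted limits. All 7 tested HoxB genes had a log2 fold change above 0, with a median of 1.27, and 6 had no WT library as high as the lower KO library. The value of Hoxb5 turned to -0.19 without KO 1 and to -0.023 without WT 2. Over all genes, 58.6% had a log2 fold change above 0 and 35.3% had both KO libraries higher. Hoxb2, which acts in hindbrain and pharyngeal arch patterning, stood at 3.65 and 3.58 FPKM in WT, against 8.50 and 14.2 FPKM in KO skin. Its KO libraries were both above the WT libraries, which were close to each other. The log2 fold change was 1.38 ± 0.31 (SE; limma adjusted p = 0.248).

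Hoxb6, Hoxb7 and Hoxb8, which lie side by side and act in the trunk, formed the other end of this stretch. Hoxb6 was at 4.77 and 3.41 FPKM in WT, against 12.7 and 10.5 FPKM in KO skin, with a log2 fold change of 1.32 ± 0.27 (SE; limma adjusted p = 0.248). Hoxb7 was at 4.82 and 2.10 FPKM in WT, against 9.63 and 12.6 FPKM in KO skin, with a log2 fold change of 1.50 ± 0.38 (SE; limma adjusted p = 0.248). Hoxb8, at 2.02 and 1.44 FPKM in WT, against 6.05 and 5.06 FPKM in KO skin, had a log2 fold change of 1.27 ± 0.26 (SE; limma adjusted p = 0.248). In each of these genes both KO libraries lay above both WT libraries. Annotated exons of Hoxb7 and Hoxb8 overlap on the same strand, so fragments there could have been given to either gene.

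The genes between them differed less. Hoxb3 was at 2.88 and 3.08 FPKM in WT, against 4.79 and 6.49 FPKM in KO skin, and its log2 fold change was 0.73 ± 0.26 (SE; limma adjusted p = 0.276). Hoxb4 was at 2.57 and 2.73 FPKM in WT, against 3.56 and 4.09 FPKM in KO skin, with a log2 fold change of 0.40. Hoxb5 was at 2.35 and 1.81 FPKM in WT, against 3.03 and 1.70 FPKM in KO skin, and its groups overlapped. Along the 7 tested genes, the fold change was thus larger at both ends than in the middle, and smallest at Hoxb5. Without KO 2 it was smallest at Hoxb4, at 0.32 against 0.39 for Hoxb5. Hoxb2 and Hoxb3 share annotated exon positions with the antisense transcript Hoxb3os, and Hoxb5 with 0610040B09Rik. Whether the authors' counting used strand is not given in the sources used here.

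In HoxA, 9 genes were tested and 0 passed the unadjusted limits. Hoxa2, the group 2 partner of Hoxb2, was at 0.687 and 0.791 FPKM in WT, against 1.75 and 2.97 FPKM in KO skin. Its groups did not overlap, and the log2 fold change was 0.93 ± 0.29 (SE; limma adjusted p = 0.254). Hoxa2 was under 1 FPKM in both WT libraries and entered the test through the KO libraries, so that its direction was in part fixed by the filter. Exons of Hoxa2 and Hoxa3 overlap on the same strand, and Hoxa3 stood at 2.48 and 2.47 FPKM in WT, against 2.84 and 2.58 FPKM in KO skin. Hoxa5, which acts in lung and axial skeleton, was at 7.31 and 5.27 FPKM in WT, against 11.3 and 10.1 FPKM in KO skin, with a log2 fold change of 0.69 ± 0.27 (SE; limma adjusted p = 0.288).

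The remaining HoxA genes overlapped between the groups. Hoxa4 was at 5.10 and 3.42 FPKM in WT, against 3.08 and 3.99 FPKM in KO skin. Hoxa6 was at 1.21 and 0.685 FPKM in WT, against 1.80 and 0.970 FPKM in KO skin. Hoxa7 was at 6.61 and 4.56 FPKM in WT, against 9.39 and 3.92 FPKM in KO skin, so that the KO libraries lay on either side of the WT libraries. Hoxa9 and Hoxa10 belong to the high-numbered end, and both take part in limb patterning. Hoxa9 was at 4.36 and 2.75 FPKM in WT, against 3.56 and 2.30 FPKM in KO skin. Hoxa10 was at 6.34 and 2.77 FPKM in WT, against 3.10 and 3.23 FPKM in KO skin, and its WT spread was wider than the distance between the group means.

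In HoxC, Hoxc6, Hoxc8 and Hoxc13 stood higher in both KO libraries. Hoxc8, a regulator of thoracic vertebral identity, was at 3.62 and 4.99 FPKM in WT, against 10.7 and 8.94 FPKM in KO skin, with a log2 fold change of 1.04 ± 0.27 (SE; limma adjusted p = 0.248). Hoxc6 was at 7.83 and 6.99 FPKM in WT, against 17.8 and 9.69 FPKM in KO skin, with a log2 fold change of 0.76 ± 0.34 (SE; limma adjusted p = 0.329). That value was 0.35 without KO 1 and 1.16 without KO 2. Hoxc4 was at 6.67 and 4.58 FPKM in WT, against 8.26 and 5.51 FPKM in KO skin. Hoxc5 was at 4.62 and 4.32 FPKM in WT, against 4.83 and 3.44 FPKM in KO skin. The ranges of Hoxc4 and Hoxc5 overlapped between the groups.

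Hoxc13 was set apart from its neighbours. It is known for its part in the hair follicle matrix, where it regulates hair keratin genes. Its level was 1.08 and 0.350 FPKM in WT, against 6.37 and 3.06 FPKM in KO skin, a log2 fold change of 1.71 ± 0.40 (SE; limma adjusted p = 0.248). It was the largest of the tested Hox genes, but without KO 1 it was 1.28, under the 1.72 of Hoxb2 and the 1.68 of Hoxb7. Hoxc9 was at most 1.59 FPKM, and Hoxc10 to Hoxc12 were at or near 0, so that the last gene of the cluster was expressed beyond 3 nearly silent ones. The 10 hair follicle markers, which include Krt71, Krt35 and Tchh, summed to 14.0 and 3.70 FPKM in WT, 350.6 FPKM in KO 1 and 23.2 FPKM in KO 2. All 10 had a log2 fold change above 0, against 58.6% of all genes, but in KO 2 Krt71, Krt27, Krt25 and Dlx3 lay below WT 1. Krt28, Krt35, Krt85 and Msx2 reached 1 FPKM in the KO libraries alone, so that their direction was in part fixed by the filter. Hoxc13 put the 4 libraries in the same order as the sum of the 10 markers. The part of follicle content in the Hoxc13 difference was not tested.

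In HoxD, 3 genes were tested, and their median log2 fold change was 0.09. Hoxd4 was at 1.76 and 1.35 FPKM in WT, against 3.69 and 0.590 FPKM in KO skin, and shares annotated exon positions with Hoxd3. The log2 fold change was 0.10 ± 0.54 for Hoxd4, 0.09 ± 0.38 for Hoxd8 and -0.28 ± 0.33 for Hoxd9 (SE; limma adjusted p between 0.654 and 0.933). All 3 intervals of 1 SE hold 0. Hoxd4 had -0.68 without KO 1 and 0.88 without KO 2, and Hoxd8 -0.38 without WT 2.

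Summed over the family, Hox mRNA came to 120.4 and 85.2 FPKM in WT, against 172.3 and 140.1 FPKM in KO skin. The KO mean was 1.52 times the WT mean (156 ± 22.7 against 103 ± 24.9 FPKM, SD, n = 2 each). Per FPKM of the geometric mean of the basal keratins Krt5 and Krt14, which were higher in both KO libraries, the sum was lower in KO skin, at 0.121 and 0.0884 in WT, against 0.0799 and 0.0657 in KO skin, with no overlap. Krt5 and Krt14 were chosen for this after seeing the data. In the summed FPKM itself the groups did not overlap, and the two-sided exact permutation test gave p = 0.333, the smallest that 2 libraries against 2 allow. HoxB summed to 23.6 and 18.5 FPKM in WT, against 49.7 and 55.3 FPKM in KO skin, 2.50 times the WT mean. HoxC summed to 24.5 and 21.3 FPKM in WT, against 49.8 and 30.8 FPKM in KO skin. The HoxA sums, 34.8 and 23.7 FPKM in WT, against 38.0 and 31.2 FPKM in KO skin, overlapped. So did the HoxD sums, 37.5 and 21.8 FPKM in WT, against 34.8 and 22.9 FPKM in KO skin. The HoxA difference of 5.31 FPKM became -0.28 FPKM without WT 2, and the HoxD difference of -0.86 FPKM became 7.01 FPKM without WT 1 and 5.10 FPKM without KO 2.

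The make-up of Hox mRNA within a library does not depend on how the library is scaled. HoxB made up 19.6% and 21.7% of it in WT and 28.9% and 39.5% in KO skin. HoxA made up 28.9% and 27.8% in WT, against 22.0% and 22.2% in KO skin. HoxD made up 31.2% and 25.6% in WT, against 20.2% and 16.3% in KO skin. The groups did not overlap in these 3 shares, with an exact permutation p of 0.333 for each. The HoxC share overlapped, at 20.3% and 25.0% in WT, against 28.9% and 22.0% in KO skin, and its difference of 2.81 percentage points became -0.67 without KO 1. Since shares add up to the whole, a larger HoxB share entails smaller shares elsewhere.

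Along the paralogue axis, groups 1 to 3 summed to 10.7 and 11.2 FPKM in WT, against 20.3 and 27.5 FPKM in KO skin, with no overlap. Groups 4 to 8 summed to 83.2 and 58.5 FPKM in WT, against 123.9 and 96.4 FPKM in KO skin. Groups 9 to 13 summed to 26.4 and 15.5 FPKM in WT, against 28.1 and 16.3 FPKM in KO skin, and overlapped. The last of these made up 22.0% and 18.2% of Hox mRNA in WT and 16.3% and 11.6% in KO skin (exact permutation p = 0.333). The mean paralogue number weighted by FPKM was 6.61 and 6.20 in WT, against 6.43 and 5.96 in KO skin (exact permutation p = 0.667). The groups overlapped, and the difference of -0.21 became 0.02 without KO 2. Group 9 made up 15.1% and 13.8% in WT, against 9.97% and 6.94% in KO skin, and group 13, nearly all of it Hoxc13, 0.913% and 0.411% in WT, against 3.71% and 2.20% in KO skin.

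**Figure D3:**
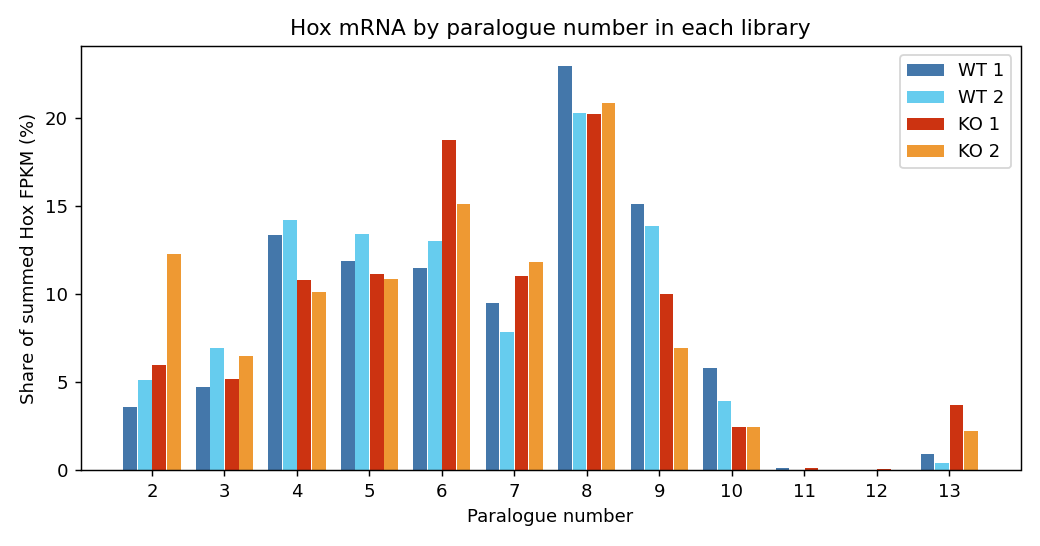
Share of the summed Hox FPKM of each library that each paralogue number from 2 to 13 made up; bars are single libraries. Group 8 held between 20.2% and 22.9% in all 4 libraries, while group 9 was lower and group 13 higher in both KO libraries.

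Ratios between paralogues, which also do not depend on scaling, were compared for 12 pairs. The groups did not overlap in 9 pairs and overlapped in 3, but the pairs share genes and no such share over all genes was computed. The pairs were picked by hand, and all but Hoxc8 with Hoxd8 set a HoxB gene against a paralogue. HoxB genes were already seen to stand higher in KO skin, so the count of pairs adds no separate support for that difference. Hoxb8 was 0.0922 and 0.133 times Hoxd8 in WT, against 0.335 and 0.332 times Hoxd8 in KO skin. The homeoboxes of this pair, printed above, are 80.6% identical. Hoxb6 relative to Hoxa6 was 3.95 and 4.99 in WT, against 7.06 and 10.9 in KO skin. Hoxb7 relative to Hoxa7 was 0.728 and 0.461 in WT, against 1.02 and 3.22 in KO skin. None of these ratios overlapped between the groups. Hoxb3 relative to Hoxa3 was 1.16 and 1.24 in WT, against 1.68 and 2.52 in KO skin, and Hoxb4 relative to Hoxa4 was 0.504 and 0.797 in WT, against 1.16 and 1.02 in KO skin. Hoxc8 relative to Hoxd8 was 0.165 and 0.461 in WT, against 0.592 and 0.587 in KO skin. By contrast, Hoxb2 relative to Hoxa2 was 5.32 and 4.53 in WT, against 4.87 and 4.79 in KO skin, so that the KO ratios lay between the WT ratios while both genes were about 3-fold higher in the KO mean (3.14 and 3.19 times the WT mean). Hoxb5 relative to Hoxa5 went the other way, from 0.322 and 0.344 in WT to 0.268 and 0.169 in KO skin. Hoxb8 was 0.559 and 0.288 times Hoxc8 in WT and 0.565 and 0.566 times Hoxc8 in KO skin, so that KO lay at the upper WT value, and Hoxb4 relative to Hoxc4 and Hoxb5 relative to Hoxc5 overlapped between the groups. Hoxb6 relative to Hoxc6 was 0.610 and 0.489 in WT, against 0.714 and 1.09 in KO skin, with no overlap.

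Markers of the cell types of skin differed in level between the libraries, and in bulk RNA fewer cells of a type and less RNA per cell cannot be told apart. Of 11 keratinocyte markers, 10 had a log2 fold change above 0, against 58.6% of all genes, and 7 passed the unadjusted limits upwards, against 6.16%. The geometric mean of Krt5 and Krt14, the keratins of basal epidermis, was 994 and 964 FPKM in WT, against 2155 and 2133 FPKM in KO skin. Markers of the upper epidermal layers were not alike in the KO libraries. Krt10 was at 745 and 364 FPKM in WT, 1670 FPKM in KO 1 and 266 FPKM in KO 2, and Krt1 and Lor were likewise highest in KO 1 and lowest in KO 2. The geometric mean of 12 fibroblast markers, with Col1a1, Dcn and Pdgfra among them, was 17.3 and 12.4 FPKM in WT, 28.4 FPKM in KO 1 and 2.58 FPKM in KO 2, the lowest library in 11 of the 12. All 9 macrophage, 8 endothelial, 6 adipocyte and 9 skeletal muscle markers had a log2 fold change under 0, and 6 macrophage and 2 muscle genes passed the unadjusted limits downwards, against 4.14% of all genes. KO 2 was the lowest library in 9 of 9 macrophage, 8 of 8 endothelial and 5 of 6 adipocyte markers. KO 1 was the highest in 4 of 8 endothelial markers and for Cd163, Lep and Myh2. Muscle markers summed to 25214 and 23597 FPKM in WT, against 15539 and 15966 FPKM in KO skin.

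Each cluster was set against these markers. For the epidermis only Krt5 and Krt14 were used, a choice made after seeing the data. Krt1, Krt10 and Lor, which were lowest in KO 2, were not used. Per 1000 FPKM of Krt5 and Krt14, HoxB came to 23.7 and 19.2 FPKM in WT, against 23.1 and 25.9 FPKM in KO skin, and the groups overlapped. HoxA came to 35.1 and 24.5 FPKM in WT, against 17.6 and 14.6 FPKM in KO skin, and HoxD to 37.8 and 22.6 FPKM in WT, against 16.1 and 10.7 FPKM in KO skin, both lower in KO with no overlap. HoxC came to 24.6 and 22.1 FPKM in WT, against 23.1 and 14.4 FPKM in KO skin. Relative to the fibroblast markers, HoxB was 1.36 and 1.49 in WT, against 1.75 in KO 1 and 21.4 in KO 2. HoxA was 2.01 and 1.90 in WT, against 1.34 in KO 1 and 12.1 in KO 2. HoxD was 2.16 and 1.76 in WT, against 1.23 in KO 1 and 8.86 in KO 2, and HoxC was 1.41 and 1.71 in WT, against 1.76 in KO 1 and 11.9 in KO 2. HoxB and HoxC did not overlap between the groups on this measure, while HoxA and HoxD were lowest in KO 1 and highest in KO 2. Summed Hox mRNA was 6.94 and 6.86 in WT, against 6.07 in KO 1, but 54.3 in KO 2, where those markers were lowest. The part of these cell types in the HoxB difference was not tested.

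**Figure D4:**
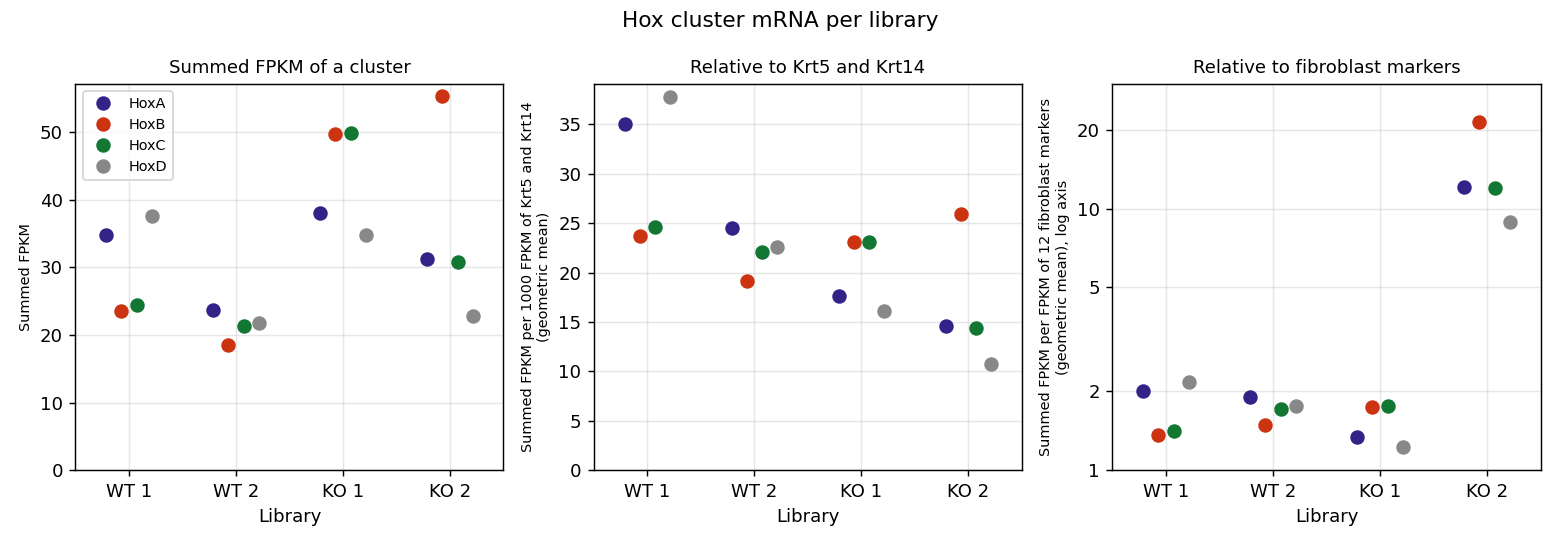
Summed FPKM of each Hox cluster in the 4 libraries (left), the same per 1000 FPKM of the geometric mean of Krt5 and Krt14 (middle), and per FPKM of the geometric mean of 12 fibroblast markers on a log axis (right). HoxB is higher in both KO libraries on the left, overlaps between the groups in the middle at 19.2 to 25.9, and all 4 clusters stand high in KO 2 on the right.

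Other genes of the Hox system were described from lists of their own. The TALE homeodomain proteins, with which Hox proteins bind DNA, had 9 tested genes, of which 8 had a log2 fold change above 0 (median 0.28) and 0 passed the unadjusted limits. Pbx4, among the 8, reached 1 FPKM in the KO libraries alone, so that its direction was in part fixed by the filter. For this and the next lists, the shares over all genes were 58.6% above 0, 6.16% past the unadjusted limits upwards and 4.14% downwards. Pbx2 was the highest of them, at 13.8 and 15.7 FPKM in WT, against 16.1 and 17.0 FPKM in KO skin. Pknox2 was at 9.85 and 8.93 FPKM in WT, against 7.31 and 5.29 FPKM in KO skin, with both KO libraries below both WT libraries.

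Among 22 Trithorax and Polycomb genes, whose proteins keep Hox genes on or off, 17 had a log2 fold change above 0 and the median was 0.37. Phc2, Ring1 and Wdr5 had the highest levels, with log2 fold changes of 0.18, 0.05 and 0.31. Cbx2, a Polycomb reader of histone methylation, was at 2.40 and 1.70 FPKM in WT, against 5.59 and 6.12 FPKM in KO skin. It was the 1 gene of 22 past the unadjusted limits, near the 6.16% of all genes, with a log2 fold change of 1.18 ± 0.26 (SE; limma adjusted p = 0.248).

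Of 18 noncoding transcripts of the clusters in the table, 2 passed the filter and 8 were listed at 0 in all libraries, Hotair and the miRNA genes Mir10a and Mir10b among them. A gene listed at 0 is not read as absent. Hotairm1, a transcript of the HoxA cluster, was at 25.6 and 11.3 FPKM in WT, against 12.5 and 23.7 FPKM in KO skin. Mira, from between Hoxa6 and Hoxa7, was at 11.4 and 6.90 FPKM in WT, against 21.4 and 19.7 FPKM in KO skin. Its log2 fold change of 1.12 ± 0.30 (SE; limma adjusted p = 0.248) stood beside 0.28 for Hoxa6 and 0.14 for Hoxa7. Leaving out a library put Hoxa6 between 0.031 (without KO 1) and 0.54 (without KO 2), and Hoxa7 between -0.40 (without KO 1) and 0.68 (without KO 2).

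Genes that flank the clusters give the levels just outside the Hox clusters. Of 6 tested, 4 had a log2 fold change above 0 and 0 passed the unadjusted limits. Hibadh was at 54.8 and 56.3 FPKM in WT, against 47.3 and 88.3 FPKM in KO skin. Calcoco1 was at 41.8 and 35.4 FPKM in WT, against 34.6 and 25.0 FPKM in KO skin, and Mtx2 at 35.8 and 33.8 FPKM in WT, against 33.2 and 49.5 FPKM in KO skin.

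Regional transcription factors outside the Hox family had 10 of 25 genes tested, 7 of them with a log2 fold change above 0. Msx2, among the 7, reached 1 FPKM in the KO libraries alone, so that its direction was in part fixed by the filter. Tbx15, which marks dorsal dermis, was at 50.0 and 29.1 FPKM in WT, against 30.3 and 23.3 FPKM in KO skin. Prrx1 was at 14.9 and 8.30 FPKM in WT, against 17.1 and 7.64 FPKM in KO skin. Dlx5 was at 1.56 and 0.490 FPKM in WT, against 3.33 and 4.04 FPKM in KO skin, the 1 gene of the 10 past the unadjusted limits, where 6.16% of all genes were (log2 fold change 1.26 ± 0.34, SE; limma adjusted p = 0.248).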

How the data were processed

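RNA of BLM-treated skin was measured in 4 libraries, 2 WT and 2 GSDMD KO, grouped by their labels. Per the labels' processing notes, the authors used HISAT2 2.0.1, StringTie 2.0.6 and mm9, and the paper's methods name featureCounts and DESeq2. The deposited table is named as raw counts, but 99.993% of the values above 0 are not whole, so they are not raw counts. They were taken to be FPKM, which values that are not whole do not show by themselves. A count model was therefore replaced by limma 3.58.1 (R 4.3.3) with an intensity trend on log2(FPKM + 1), and fold changes on this scale understate those of low genes. The test took the 13027 of 24441 genes that reached 1 FPKM in 2 or more libraries. Calls needed a Benjamini-Hochberg adjusted p below 0.05 together with a log2 fold change beyond 1 in either direction. Division by length and depth is already in the values, and deposited FPKM sums ran from 448544 to 462251 per library. Depth is known only from the smallest steps of single-transcript genes. The table's loci overlapped the GENCODE annotation of mm9 for 99.2% of 20132 genes matched by symbol. Homeobox sequences are from GENCODE transcripts, checked against the NCBIM37 (mm9) genome. Single values were compared with exact permutation tests. The fit was tested on simulated data. The Hox genes, the other lists and the tests were chosen with earlier results of these data known. Hox genes with a mean of at least 1 FPKM are given in every library and the others by range and count. Of the other lists of the Hox system, counts, the 3 genes of highest mean and those past the unadjusted limits are given. For some of these lists the median is given as well. Cell type markers are given by counts or levels, with the smooth muscle and pericyte markers left out. A few genes that these rules would name are not reported here, though they stay in the counts, sums and fits.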

Additional observations from a re-analysis of the deposited data

How the results depend on the processing

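With 2 libraries a group, a single library could move most values. The count of 0 called Hox genes held under 2 other pseudocounts, 2 other filters, 3 other scalings and a fit with no trend. It was 6 at unadjusted p, and 0 to 3 when a library was left out. The median log2 fold change ran from 0.14 to 0.54 with a library left out. Fits with a replicate block called 0 Hox genes, as did the fit without it, and the block changed no call. Same-numbered libraries deviated in opposite directions (r = -0.20 over 13027 genes), and with the numbers crossed, an alternative chosen after seeing the data, 0 genes were called and 819 were higher and 681 lower at unadjusted p.

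Some signs turned. Hoxd4 had -0.025 with a pseudocount of 0.1, and Hoxd8 -0.019 with median-ratio factors and -0.0020 with upper-quartile scaling. The paralogue mean differed by 0.031 with log2 weights. Relative to Krt5 and Krt14 (chosen after seeing the data), the differences in rescaled FPKM were -46.3 for summed Hox, -19.8 for HoxA and -6.61 for HoxC, and relative to the fibroblast markers 34.6 for HoxD. Leaving out a library gave log2 ranges of -0.43 to 0.031 (Hoxa4), -0.40 to 0.68 (Hoxa7), -0.47 to 0.050 (Hoxa9), -0.82 to 0.14 (Hoxa10), -0.19 to 0.39 (Hoxb5), -0.0082 to 0.50 (Hoxc4), -0.30 to 0.091 (Hoxc5), -0.68 to 0.88 (Hoxd4), -0.38 to 0.57 (Hoxd8) and -0.57 to 0.014 (Hoxd9). It gave -0.45 to 0.022 for the paralogue mean, -0.67 to 6.29 percentage points for the HoxC share, -0.28 to 10.9 FPKM for the HoxA sum and -8.72 to 7.01 FPKM for the HoxD sum.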
